A study of Rattus norvegicus with 15 samples.

Results

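Ribosome biogenesis factors are the proteins that transcribe, trim, modify and fold ribosomal RNA in the nucleolus and assemble it with ribosomal proteins. In the set described here, 41 of the 14506 genes tested were members. Of these, 27 were taken by the spelling of their symbol (Nop, Utp or Rrp followed by a digit, or Polr1 followed by a letter). The other 14 came from a list of 15 further symbols, namely Ppan, Bop1, Rrs1, Ftsj3, Fbl, Ncl, Npm1, Nol6, Wdr12, Wdr43, Nat10, Gnl3, Imp3, Imp4 and Pes1, of which Pes1 is not analysed here. No measured value entered the choice of genes, although the set was proposed with earlier results of these data known. By role, 8 members are subunits of RNA polymerase I, 4 belong to small nucleolar ribonucleoproteins (snoRNPs), 16 act on the small subunit precursor and 10 on the large subunit precursor. A further 2 are the abundant nucleolar proteins nucleolin and nucleophosmin. The spelling rule also took in Polr1has, which is named as an antisense RNA of Polr1h and is kept apart below.

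The cells were freshly isolated primary rat hepatocytes seeded in microfluidic biochips, left to adhere for 24 h and then perfused at 25 µl/min. Flutamide, a nonsteroidal antiandrogen known for liver injury in some patients, was added for 24 h at 10 µM (n = 6 biochips) or 100 µM (n = 4), and 5 biochips received the solvent DMSO. Each biochip gave 1 Affymetrix array of biotin-labelled total RNA, so there are 15 arrays. The biochips carry numbers from 10 to 16 and from 20 to 27 in their titles. The first series is called run 1 below and the second run 2, and what separates them is not stated in the labels. Run 1 holds 2 DMSO, 3 10 µM and 2 100 µM biochips, and run 2 holds 3, 3 and 2. The labels give no strain, sex or age, and do not say whether the biochips were seeded from separate animals, so p-values measure the spread between biochips, which may be technical. In bulk RNA of this kind, fewer cells of a type and less RNA per cell cannot be told apart.

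As background, RNA polymerase I transcribes one long precursor that holds the 18S, 5.8S and 28S ribosomal RNAs. A large particle, the small subunit processome, forms on the start of this precursor with the U3 snoRNP and releases the small subunit precursor, while a second series of factors matures the large subunit. Transcription of many of these factors is raised by growth signals through MYC and mTOR. In liver the pathway is known for its rise during regeneration.

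The central observation was about the controls. The 3 DMSO biochips of run 2 had higher values of many ribosome biogenesis factors than the 2 DMSO biochips of run 1, whereas the flutamide biochips of both runs lay near the run 1 controls. Within run 2, 31 of the 41 members were lower at 10 µM than in DMSO, with a median log2 difference of -0.35, and 31 were lower at 100 µM, with a median of -0.16. Of all genes 46.5% and 46.8% were lower, and both doses were set against the same 3 controls. With a renewed quantile normalization of the arrays 27 members were lower at each dose, with medians of -0.25 and -0.08. Within run 1 the medians were 0.05 at 10 µM (0.02 without DMSO biochip 11, 0.01 with the renewed normalization) and 0.11 at 100 µM (0.06 without biochip 11, 0.04 without biochip 15). No member passed the test against DMSO at either dose over both runs together, and no member passed the test of the difference between runs. All values below are the authors' log2 expression values or differences between them, so 1 unit is a doubling.

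The arrays were alike in the whole. The median correlation of an array with the other 14 was 0.978 to 0.990 for all but biochip 23 of the 10 µM group in run 2, where it was 0.963. Biochip 23 also had the lowest array quality weight (0.205, where 1 is average), followed by biochips 15 (100 µM, 0.427) and 24 (10 µM, 0.549). Hepatocyte markers were high on every array, with a mean of 10.92 to 11.63 over the 6 markers Alb, Ttr, Apoa1, Serpina1, Tat and Cps1. Biochip 23 stood high for Kupffer cell and macrophage markers: its mean over 14 such genes was 7.42, against 5.58 to 6.85 on the other 14 arrays. Cd163 read 8.51 there against 4.98 to 6.32 in the other 10 µM biochips. Of the same list Cd68 lay within their range (9.853 against 8.955 to 10.394), and Lyz2 lay below it (6.684 against 6.844 to 7.664). Markers of other cell types were also high on biochip 23, among them Lyve1 (5.875 against 4.569 to 4.775), Lrat (5.443 against 4.342 to 4.512) and Tat (11.299 against 9.711 to 10.67). The cholangiocyte markers were mixed there. Krt7 (4.736 against 4.874 to 5.311) and Epcam (7.935 against 8.332 to 8.827) were low. Spp1 was high (5.301 against 5.02 to 5.129), Krt19 was at the top of the others (4.767 against 4.535 to 4.766) and Cftr lay within their range. Results of the members that rest on biochip 23 are given with and without it. Medians of the wider lists are given with it only.

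Promoter sequence was printed for members that carried the run 2 difference, for 1 member with several motif matches and for 1 that stayed level in every group, so that they can be read side by side. Sequences were matched by symbol to RefSeq (build GRCr8) for 37 of the 41 members. Bop1, Rrs1, Utp23 and Wdr43 had none in that table. Each line gives the 150 bases before the annotated start, 5′ to 3′ on the gene's strand, with matches in capitals to 4 motifs on either strand. The CCAAT box was searched as CCAAT. The GC box, which Sp1 binds, was searched as GGGCGG. The core bound by ETS factors was searched as CCGGAAG. The E-box that MYC binds was searched as CACGTG. Ppan is at chr8:27699997-27700146 (plus strand), Utp14a at chrX:132317090-132317239 (plus), Nol6 at chr5:61066305-61066454 (minus), Utp4 at chr19:51702091-51702240 (plus) and Npm1 at chr10:18255742-18255891 (minus).
Ppan: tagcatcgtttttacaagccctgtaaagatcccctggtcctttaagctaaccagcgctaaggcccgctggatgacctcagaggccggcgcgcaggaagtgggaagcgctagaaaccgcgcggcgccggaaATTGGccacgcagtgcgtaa
Utp14a: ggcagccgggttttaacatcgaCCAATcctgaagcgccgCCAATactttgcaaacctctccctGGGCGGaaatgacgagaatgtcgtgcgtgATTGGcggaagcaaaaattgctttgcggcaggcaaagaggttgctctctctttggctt
Nol6: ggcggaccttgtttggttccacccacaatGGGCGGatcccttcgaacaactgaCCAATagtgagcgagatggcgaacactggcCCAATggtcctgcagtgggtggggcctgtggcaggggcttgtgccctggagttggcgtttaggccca
Utp4: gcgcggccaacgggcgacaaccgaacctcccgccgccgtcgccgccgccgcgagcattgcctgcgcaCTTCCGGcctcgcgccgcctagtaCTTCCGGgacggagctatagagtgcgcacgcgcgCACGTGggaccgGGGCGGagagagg
Npm1: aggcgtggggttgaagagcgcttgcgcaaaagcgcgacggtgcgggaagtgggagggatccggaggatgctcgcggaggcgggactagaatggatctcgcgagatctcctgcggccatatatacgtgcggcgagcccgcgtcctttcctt
The Ppan stretch held 1 CCAAT match, the Utp14a stretch held 3 CCAAT matches and 1 GC box, and the Nol6 stretch held 2 CCAAT matches and 1 GC box. Only the Utp4 stretch among the 5 held an E-box, which started 25 bases before the start site. Over the 250 bases before the start, CCGGAAG was in 13 of the 37 member promoters (35.1%), against 11.2% of the 11968 tested genes with a sequence. The E-box letters were in 6 of 37 (16.2%), against 6.92%, in Gnl3, Polr1g, Rrp1, Rrp7a, Utp18 and Utp4. The GC box was in 54.1% against 47.3%, CCAAT in 29.7% against 35.6% and TATAAA in 8.11% against 11.3%. These shares describe the letters alone.

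The level of each member on each array was set against the mean of the 5 DMSO arrays. The median of this deviation over the 41 members was 0.10, 0.11 and 0.06 on DMSO biochips 20, 21 and 22 of run 2. It was -0.05 and -0.20 on DMSO biochips 10 and 11 of run 1. On the 6 10 µM biochips the medians ran from -0.24 (biochip 23) to -0.03, and on the 4 100 µM biochips from -0.14 to -0.00. Thus the run 2 controls were the 3 arrays with a median above 0, and the run 1 controls overlapped the flutamide arrays. The reference holds the controls of both runs, so their deviations from it are not independent of each other.

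**Figure D1:**
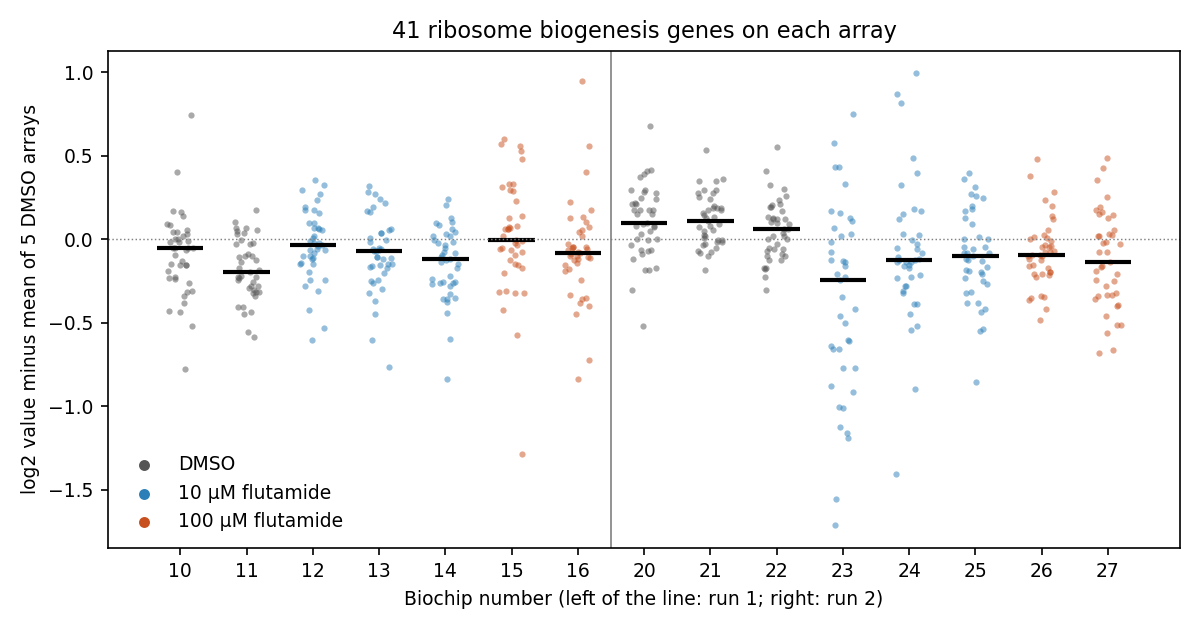
Each point is 1 of the 41 genes on 1 array, as its log2 value minus the mean of the 5 DMSO arrays, and each bar is the median of the 41. The vertical line separates run 1 from run 2. DMSO biochips 20, 21 and 22 have medians of 0.06 to 0.11, and biochip 23 has the lowest median, -0.24, and a wide spread.

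The factors of the large subunit included the member this set is marked by, Ppan, whose yeast relatives act in pre-60S assembly. Ppan read 6.54 and 6.74 on the run 1 DMSO biochips and 7.21, 7.16 and 7.21 on those of run 2. It read 6.73, 6.37 and 6.53 at 10 µM in run 1 and 6.76, 6.76 and 6.43 in run 2. At 100 µM it read 6.80 and 6.57 in run 1 and 6.63 and 6.69 in run 2. The 3 run 2 controls were thus above each of the other 12 arrays while the run 1 controls lay among the treated ones. Against DMSO with both runs, Ppan differed by -0.35 at 10 µM (SE 0.11, limma adjusted p = 0.447) and by -0.28 at 100 µM (SE 0.13, adjusted p = 0.726). At 10 µM the difference was -0.10 in run 1 and -0.54 in run 2 (SE 0.12, limma adjusted p = 0.0597). Ppan was called there with array quality weights (-0.66, limma adjusted p = 0.0225) and in 0 of 15 fits that each left out 1 array.

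Bop1, which works with Pes1 and Wdr12 in maturation of the 28S rRNA, followed the same order. It averaged 7.77 ± 0.11 (SD, n = 3) in the run 2 controls, which read 7.84, 7.82 and 7.64. The run 1 controls read 7.31 and 7.10. The 10 µM biochips read 7.39, 7.37 and 7.37 in run 1 and 7.12, 7.02 and 7.36 in run 2, and the 100 µM biochips read 7.52 and 7.18 and then 7.38 and 7.35. In run 2 Bop1 was lower at 10 µM by 0.60 log2 units, which passed the test over all genes (difference -0.60, SE 0.12, limma adjusted p = 0.0352). Wdr12, from the same complex, did not share this order: it read 10.94 and 10.80 in the run 1 controls and 10.71, 10.70 and 10.71 in those of run 2, and 9.89 on biochip 23. Its difference at 10 µM was -0.18 (SE 0.14), and -0.03 without biochip 23.

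Ftsj3, a homologue of a yeast rRNA methyltransferase, had the most negative difference of any member at 10 µM, -0.60 (SE 0.22, limma adjusted p = 0.527), and this rested in part on 1 array. It read 6.84 on biochip 23, against 8.01 to 8.31 on the other 10 µM biochips and 8.21 to 8.83 in DMSO, and without biochip 23 the difference was -0.36. Rrs1, needed to bring the 5S RNP into the large subunit, read 6.72 and 6.85 in the run 1 controls and 7.53, 7.50 and 7.17 in run 2. At 100 µM Rrs1 was at 7.29 and 6.32 in run 1 and 6.67 and 6.83 in run 2. Its differences from DMSO, -0.28 at 10 µM (SE 0.18) and -0.34 at 100 µM (SE 0.20), were within the spread of the groups. Gnl3, the nucleolar GTPase nucleostemin, differed by 0.08 at 10 µM (SE 0.11) and 0.04 at 100 µM (SE 0.12), with 1 high value of 10.39 on biochip 23. Rrp15 differed by -0.38 at 10 µM (SE 0.21) and -0.19 without biochip 23. Nop53, a late factor of the same precursor, differed by 0.03 (SE 0.10) and -0.01 (SE 0.11). Of the 10 large subunit factors, 8 were below DMSO at each dose, with medians of -0.27 at 10 µM and -0.17 at 100 µM.

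Among the small subunit factors the largest difference between the controls was that of Utp14a, a processome protein that works with the helicase Dhx37. Utp14a read 6.77 and 6.96 in the run 1 controls and 8.22, 7.90 and 7.87 in those of run 2. At 10 µM it read 6.94, 6.78 and 6.95 in run 1 and 7.32, 7.24 and 6.69 in run 2. At 100 µM it read 6.26 and 6.82 in run 1 and 7.12 and 7.03 in run 2. The run 2 controls lay above all 12 other arrays, with no overlap. Utp14a was the 1 member called from run 1 to run 2 within DMSO, where it was higher in run 2 (difference 1.13, SE 0.20, limma adjusted p = 0.0465), and it passed the test at 10 µM within run 2 (-0.92, SE 0.18, limma adjusted p = 0.0358). With both runs together the differences were -0.50 at 10 µM (SE 0.18, adjusted p = 0.496) and -0.68 at 100 µM (SE 0.20, adjusted p = 0.649).

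Wdr43 and Nol6, both early components of the processome, also had run 2 controls above every other array. Wdr43 read 10.10, 10.19 and 10.20 there, against 9.74 and 9.78 in the run 1 controls, 9.54 to 10.00 in the 10 µM group (median 9.92) and 9.67 to 10.03 in the 100 µM group (median 9.88). Nol6 read 6.37, 5.95 and 6.39 in the run 2 controls and 5.66 and 5.54 in those of run 1. Its 10 µM biochips spanned 5.38 to 5.82 (median 5.68) and its 100 µM biochips 5.32 to 5.94 (median 5.60). Its lowest run 2 control (5.95) and its highest 100 µM biochip (5.94) thus nearly met.

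Other processome members had differences of opposite sign in the 2 runs. Nop9, an RNA-binding protein of the small subunit precursor, read 7.97 and 7.72 in the run 1 controls and 8.49, 8.81 and 8.40 in run 2. At 10 µM its difference was 0.35 in run 1 and -0.66 in run 2, and at 100 µM it was 0.50 and -0.43. Utp25 gave 0.32 and -0.54 at 10 µM and 0.59 and -0.38 at 100 µM. Nat10, the enzyme that acetylates 18S rRNA, gave 0.12 and -0.52 at 10 µM and 0.32 and -0.58 at 100 µM. The run 1 values at 100 µM leaned on biochip 15, an array of low quality weight. Nat10 read 7.268 on it and 6.667 on biochip 16, against 6.59 and 6.714 in the run 1 controls. Utp25 read 7.602 and 6.952, against 6.775 and 6.591. None of the differences of Nop9, Utp25 and Nat10 passed the test over all genes.

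**Figure D2:**
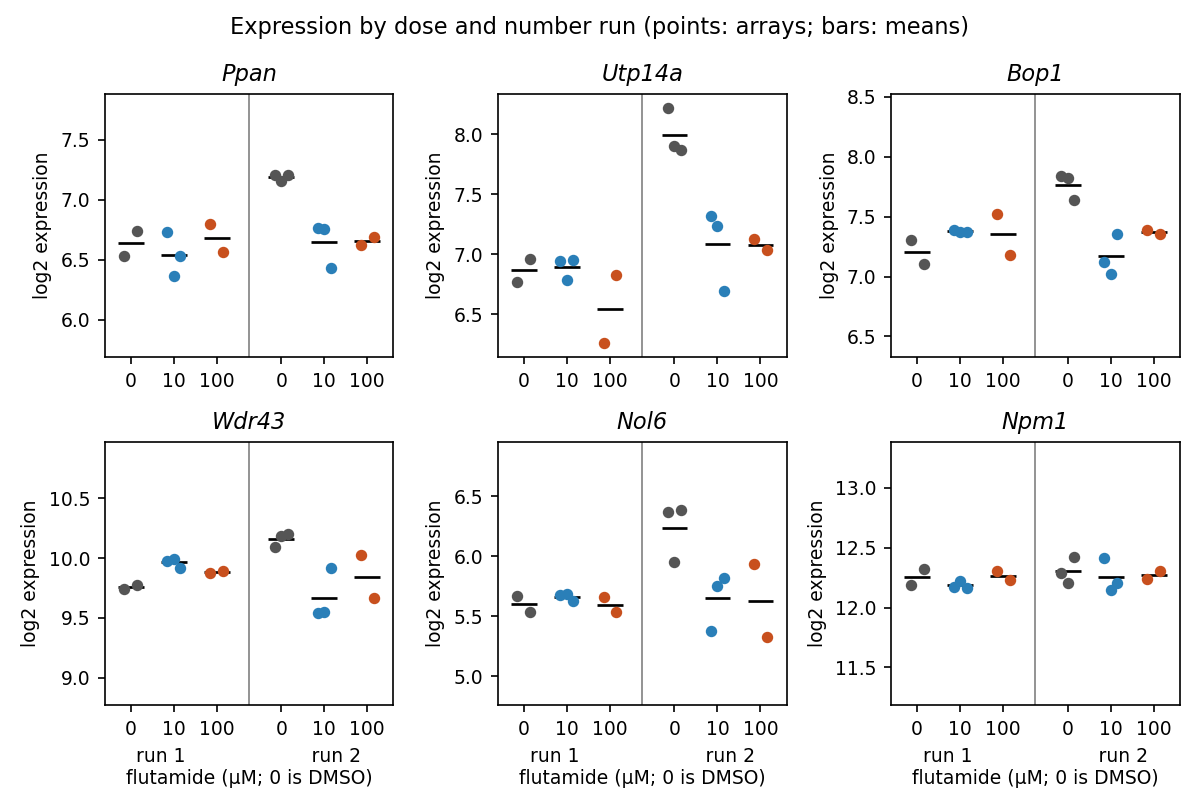
Log2 expression of 6 members on each array (points) with the group mean (bar), by flutamide dose (0 is DMSO) in run 1 and run 2. In Ppan, Utp14a, Bop1, Wdr43 and Nol6 the 3 DMSO arrays of run 2 lie above the 12 other arrays, and Npm1 spans 12.15 to 12.42 over all groups.

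A few members pointed the other way or stayed level. Utp23, a processome protein of the PIN-domain family, had the largest positive difference at 10 µM, 0.46 (SE 0.22, limma adjusted p = 0.667), and was above DMSO in run 1 (0.42) and run 2 (0.54). At 100 µM it was 0.87 above DMSO in run 1 and -0.32 in run 2. Utp15, part of the subcomplex that binds the precursor first, differed by 0.38 at 100 µM (SE 0.16, limma adjusted p = 0.716) and 0.13 at 10 µM (SE 0.15). Imp3, which bridges U3 and the precursor, differed by -0.24 at 10 µM (SE 0.10) and -0.36 at 100 µM (SE 0.11, limma adjusted p = 0.649), and was lower in both runs at both doses. Its run 1 controls read 9.91 and 9.67 and its run 2 controls 10.34, 9.89 and 9.83, against 9.35 and 9.55 and then 9.71 and 9.59 at 100 µM. Of the 4 values at 100 µM, 3 lay below every control, and the value of 9.71 lay above the lowest control. Rrp7a differed by 0.00 at 10 µM (SE 0.14) and 0.05 at 100 µM (SE 0.15). Of the 16 small subunit factors, 12 were below DMSO at 10 µM (median -0.18) and 9 at 100 µM (median -0.04).

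The RNA polymerase I subunits were mixed. Polr1a, the largest subunit, read 5.88 and 6.18 in the run 1 controls and 6.18, 6.36 and 6.48 in run 2, and its run 2 flutamide biochips read 5.21, 5.89 and 6.09 at 10 µM and 5.99 and 5.76 at 100 µM. The run 2 controls were above all 5 run 2 flutamide arrays. Polr1b, the second largest subunit, differed by -0.38 at 10 µM (SE 0.17, limma adjusted p = 0.626) and -0.08 at 100 µM (SE 0.18). It read 5.41, 5.29 and 5.97 at 10 µM in run 2, against 6.31 ± 0.27 (SD, n = 3) in the controls of that run. Polr1c and Polr1d, which RNA polymerase III also contains, differed by -0.25 (SE 0.12) and 0.18 (SE 0.16) at 10 µM. Polr1e gave -0.33 with an SE of 0.28. Polr1h, the small subunit that aids transcript cleavage, gave 0.35 at 10 µM (SE 0.20, limma adjusted p = 0.748), from -0.13 in run 1 and 0.73 in run 2. Its run 1 controls read 8.04 and 7.12, further apart than its run 2 controls (6.77, 7.54 and 6.99). At each dose 5 of the 8 subunits were below DMSO and 3 above, and none passed the limma test over all genes.

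Among the snoRNP proteins and the abundant nucleolar proteins, fibrillarin had the largest difference at 10 µM, followed by nucleolin. Fbl, the methyltransferase fibrillarin, read 10.14 and 9.82 in the run 1 controls, 10.13, 10.19 and 10.22 in run 2, and 9.18, 9.71 and 9.86 at 10 µM in run 2. Its difference at 10 µM was -0.30 (SE 0.15, limma adjusted p = 0.675), and -0.17 without biochip 23. Nop56 and Nop58, which sit beside fibrillarin in the same particle, differed by 0.07 (SE 0.12) and 0.03 (SE 0.08) at 10 µM and by 0.16 (SE 0.13) and 0.10 (SE 0.09) at 100 µM. Nop10, of the pseudouridylation particle, was the 1 member whose run 2 controls lay below every other array, at 11.854, 11.888 and 11.689. The ranges nearly met, since biochip 27 (100 µM) read 11.89 and biochip 23 (10 µM) read 11.892. Ncl, nucleolin, read 12.37, 12.30 and 12.49 in the run 2 controls and 12.14 and 12.17 in run 1, with 12.29 the highest of the other arrays. Ncl differed by -0.17 at 10 µM (SE 0.08, limma adjusted p = 0.654) and -0.04 at 100 µM (SE 0.09). At 10 µM the difference of Ncl was 0.03 in run 1 and -0.32 in run 2 (SE 0.09, limma adjusted p = 0.114). Npm1, nucleophosmin, spanned 12.19 to 12.42 in DMSO, 12.15 to 12.41 at 10 µM and 12.23 to 12.30 at 100 µM, and differed by -0.06 (SE 0.07) and -0.01 (SE 0.07). The antisense RNA Polr1has differed by 0.07 (SE 0.12) and -0.04 (SE 0.14).

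Counted over the set, 28 of the 41 members were below DMSO at 10 µM (median -0.18), against 50.9% of all genes below 0. At 100 µM 26 were below (median -0.05), against 44.3% of all genes. No member was called at either dose, and no gene was either (0.0% called) by limma with a threshold of 0.05 on the p adjusted by Benjamini-Hochberg. At an unadjusted p under 0.05, 5 members were lower and 0 higher at 10 µM (3.82% and 3.83% of all genes), and 3 were lower and 1 higher at 100 µM (3.42% and 3.43% of all genes). Those at 10 µM were Ppan, Utp14a, Ftsj3, Imp3 and Polr1b, and those at 100 µM were Utp14a, Imp3 and Ppan, with Utp15 higher. Both comparisons share the 5 DMSO arrays. Between the doses, 12 of 41 members were lower at 100 µM than at 10 µM (median over the members 0.07), against 43.5% of all genes, 0 were called (0.0% of all genes) and 0 passed an unadjusted p under 0.05 (2.34% lower and 2.65% higher among all genes). The lowest adjusted p of a member there was 0.930, for Polr1d at -0.33 (SE 0.17). No member had all 5 controls above or below all arrays of either dose (0.221% and 0.414% of all genes at 10 µM, 0.931% and 1.13% at 100 µM).

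Within run 2, 2 members were called at 10 µM, Bop1 and Utp14a, both lower, among 171 genes (1.18% of all genes, 0.91% in the lower direction). At 100 µM 0 members were called among 7 genes (0.0483%), and the lowest adjusted p was 0.152, for Utp14a. Utp14a was called there with array quality weights (-0.93, limma adjusted p = 0.0333, 96 genes called) and when the 3 lowest-weight arrays were dropped (-0.92, adjusted p = 0.0214, 114 genes called). The 3 run 2 controls lay above all 5 run 2 flutamide arrays in 12 members (5.64% of all genes), namely Bop1, Fbl, Ftsj3, Nat10, Ncl, Nol6, Nop9, Polr1a, Ppan, Utp14a, Utp25 and Wdr43. They lay below them in 1 member, Nop10 (3.81% of all genes). They lay above all 12 other arrays in 6 members (2.31% of all genes), which were Bop1, Ncl, Nol6, Ppan, Utp14a and Wdr43, and below them in Nop10 alone (0.938% of all genes). The calls at 10 µM in run 2 depended on single arrays, on the array weights and on the normalization. With array quality weights 3 members were called there among 236 genes, namely Bop1, Ppan and Utp14a. Without biochip 25 of the 10 µM group 8 members were called among 608 genes: Bop1, Fbl, Ftsj3, Polr1a, Polr1b, Utp14a and Wdr43, which were lower, and Utp23, which was higher. Without DMSO biochip 20 or 21, 0 members were called, among 15 and 59 genes. With a renewed quantile normalization 0 members were called among 163 genes, with a lowest adjusted p of 0.0849. Among 15 fits that each left out 1 array, Bop1 kept its call in 6 (those without biochip 10, 11, 15, 16, 22 or 25; adjusted p 0.0111 to 0.152 over the 15). Utp14a kept its call in 4 (without 15, 16, 23 or 25; adjusted p 0.0258 to 0.161). A fit of the run 2 arrays alone called 0 members, with a lowest adjusted p of 0.147, and had 14 lower and 2 higher at an unadjusted p under 0.05.

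Within run 1, 0 members were called at either dose (0.0% of all genes), 16 members were below DMSO at 10 µM and 12 at 100 µM, against 51.0% and 44.7% of all genes. No member had its 2 run 1 controls above all 5 run 1 flutamide arrays (3.97% of all genes). In 7 members they lay below (5.96% of all genes): Gnl3, Nop14, Nop9, Polr1b, Utp23, Utp25 and Wdr43. Nop9, Utp25 and Wdr43 thus stood on opposite sides of their own controls in the 2 runs.

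**Figure D3:**
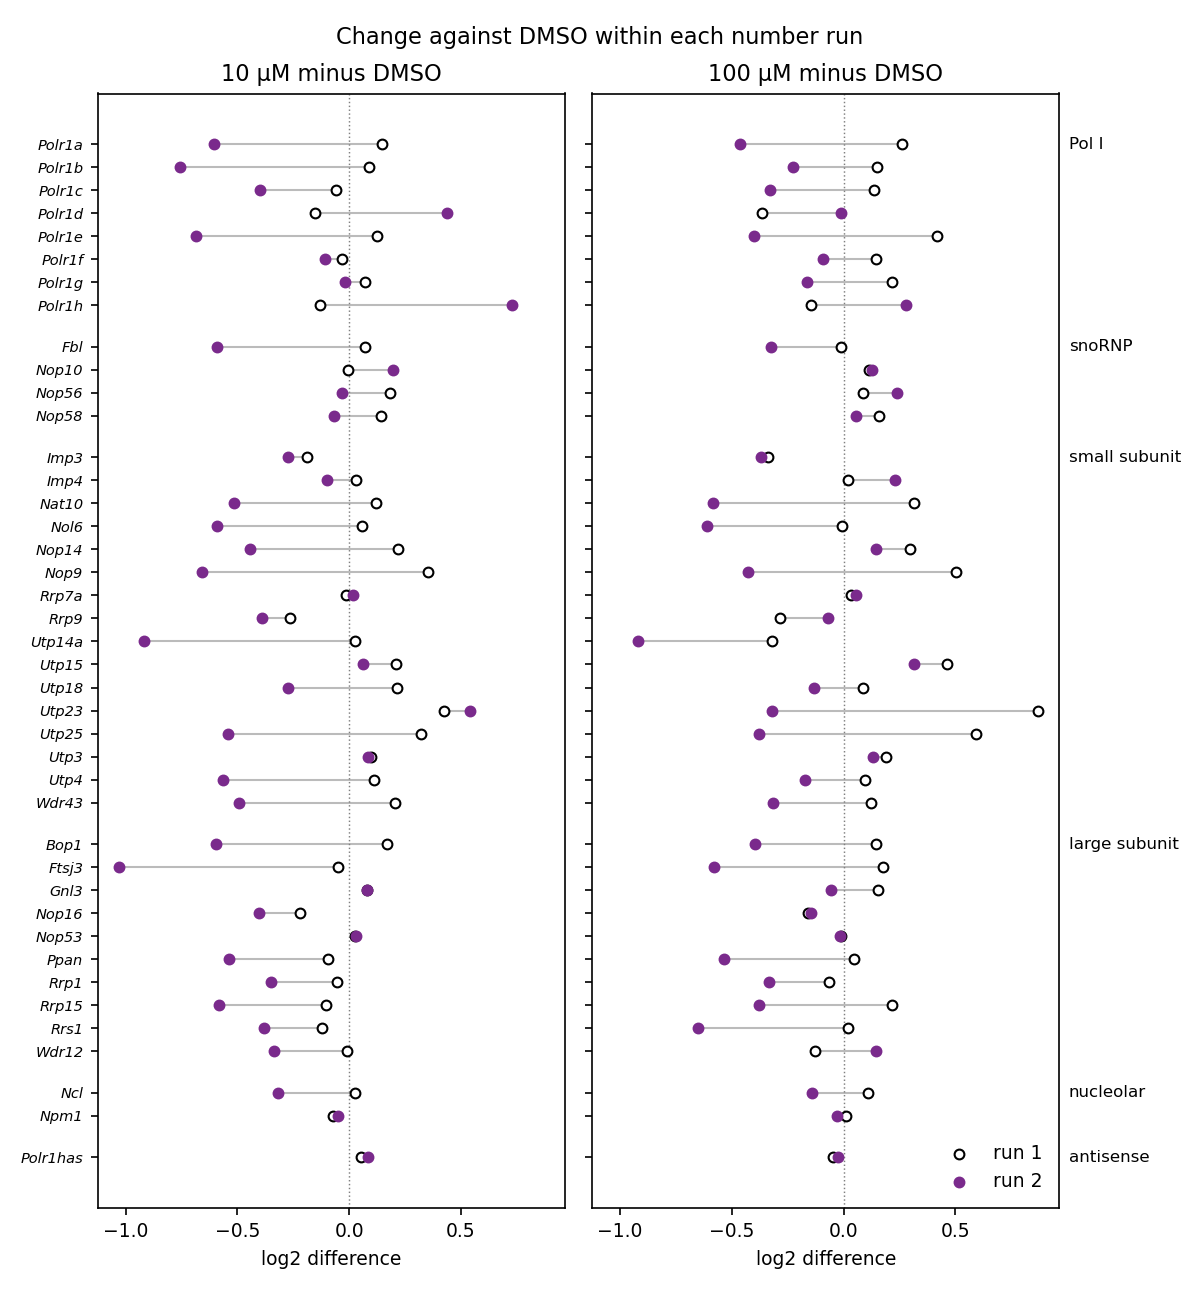
Difference from DMSO in log2 units for each of the 41 genes, ordered by role, at 10 µM (left) and 100 µM (right), in run 1 (open) and run 2 (filled), with a line joining the 2 runs. The run 2 value is below 0 in 31 genes at 10 µM and in 31 at 100 µM, which are not all the same genes. The run 1 medians are 0.05 and 0.11.

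The difference between the runs was tested directly, as the dose effect in run 2 minus that in run 1. At 10 µM it was negative in 33 of 41 members (median -0.30), against 46.9% of all genes, and at 100 µM in 31 (median -0.25), against 51.1%. Both doses share the same DMSO arrays here, so these counts are not independent. No member was called in either (0.0414% and 0.00689% of all genes). At an unadjusted p under 0.05, 14 members were negative and 1 positive at 10 µM (6.68% and 3.56% of all genes), and 8 were negative and 0 positive at 100 µM (3.87% and 2.21% of all genes). The lowest p at 10 µM were those of Bop1 (-0.77, SE 0.18, limma adjusted p = 0.208), Nop9 (-1.01, SE 0.25, 0.241) and Wdr43 (-0.70, SE 0.18, 0.249). At 100 µM they were those of Utp23 (-1.19, SE 0.33, limma adjusted p = 0.694), Nop9 (-0.93, SE 0.28) and Nat10 (-0.90, SE 0.27). Without biochip 25 of the 10 µM group, 116 genes were called at 10 µM, against 6 with all arrays. The 116 included 3 members, namely Bop1 (-0.86, limma adjusted p = 0.0456), Polr1b (-1.05, 0.049) and Wdr43 (-0.82, 0.0409). With a renewed quantile normalization of the arrays the median at each dose was -0.12.

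The same contrast can be read from the groups themselves. From run 1 to run 2, 32 of 41 members were higher in DMSO (median 0.23), where 51.7% of all genes were lower, while 25 were lower at 10 µM (median -0.12) and 26 at 100 µM (median -0.04), against 45.9% and 52.8% of all genes. The median at 10 µM was 0.02 and that at 100 µM 0.01 with a renewed quantile normalization, and without biochip 15 the median at 100 µM was 0.0027. Polr1b was called at 10 µM without biochip 25 (-0.73, limma adjusted p = 0.0308), among 376 genes against 8 with all arrays. Nat10 differed by -1.05 at 100 µM without biochip 16, where a lone 100 µM array was left in run 1. In DMSO 1 member was called, Utp14a (36 genes, 0.248%), and 10 were higher at an unadjusted p under 0.05 (5.36% of all genes) with 0 lower (3.52%). Those 10 were Utp14a, Bop1, Ppan, Nop9, Nol6, Wdr43, Utp18, Utp25, Rrs1 and Ncl. The run 2 controls lay above both run 1 controls in 15 members (15.6% of all genes) and below in 3 (14.9% of all genes). The call of Utp14a was kept in 5 of 15 fits that left out 1 array (without 15, 16, 23, 24 or 25; adjusted p 0.0229 to 0.454), and was lost with a renewed quantile normalization (1.06, adjusted p = 0.101) and with an intensity trend and robust prior (adjusted p = 0.0704). Bop1 was called beside it with array quality weights, among 123 genes (0.57, limma adjusted p = 0.0448). It differed by 0.56 when the 3 lowest-weight arrays were dropped. Averaged over the groups, run 2 and run 1 differed by a median of -0.01 over the members, 21 of 41 being lower against 49.2% of all genes, with 0 called against 79 genes in all (0.545%). Without biochip 25, Utp14a was called there among 72 genes (0.70, limma adjusted p = 0.0339).

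Biochip 23 took a large part in the size of the run 2 values at 10 µM and little in their sign. It stood apart from the rest of the 10 µM group in 9 of the 12 members in which any array did. Over all genes it did so in 1539 of 2292. Nop14 read 7.04 on it, against 8.54 to 8.95 on the others. Without biochip 23, 28 members were below DMSO at 10 µM, with a median of -0.10 in place of -0.18. Within run 2, 31 were lower, with a median of -0.18 in place of -0.35. There 2 members were called among 180 genes, Utp14a (-1.03, limma adjusted p = 0.0259) and Ftsj3 (-0.62, adjusted p = 0.0365), where Bop1 was not (-0.58, adjusted p = 0.0619). The median change from run 1 to run 2 within the 10 µM group went from -0.12 to -0.02. The markers of Kupffer cells and other cell types that were high on biochip 23 were not tested as a part of these values.

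The wider machinery was counted from lists that leave the 41 members out. Of all genes, 51.0% were below DMSO at 10 µM in run 1 and 46.5% in run 2, where 0.91% were called lower. Of 35 further processome and pre-40S factors, 7 were below DMSO at 10 µM in run 1 (median 0.13) and 26 in run 2 (median -0.21). Of 42 further 60S assembly factors, 8 were below in run 1 (median 0.14) and 36 in run 2 (median -0.21). The 9 initiation factors and regulators of RNA polymerase I were split, with 2 below DMSO in run 1 (median 0.06) and 5 in run 2 (median -0.03). The 17 further snoRNP and RNase MRP subunits had 6 below in run 1 (median 0.08) and 13 in run 2 (median -0.20). At 10 µM in run 2 the array means spanned 7.88 to 8.457 for the processome list, 7.713 to 8.154 for 60S and 6.714 to 7.129 for snoRNP. In the run 2 controls they spanned 8.438 to 8.487, 8.183 to 8.285 and 7.191 to 7.279. The called gene among the 60S assembly factors in run 2 was Ddx21, an RNA helicase linking RNA polymerase I transcription to rRNA processing, at -0.72 (SE 0.09, limma adjusted p = 0.00627). Ddx21 was also called in the difference between runs at 10 µM (-1.02, SE 0.14, limma adjusted p = 0.0343) and from run 1 to run 2 within DMSO (0.93, SE 0.10, adjusted p = 0.00457). Among 15 fits that each left out 1 array, the call at 10 µM in run 2 held in 15, that within DMSO in 14 (not without biochip 10) and that of the difference between runs in 4.

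Further factors called at 10 µM in run 2, where 0.91% of all genes were called lower, were Krr1, Nolc1 and Pop1. Krr1, a processome protein, differed by -0.51 (limma adjusted p = 0.0213). Nolc1, a nucleolar chaperone of snoRNPs, differed by -0.69 (0.0267), and Pop1, a subunit of RNase MRP, by -0.75 (0.0213). Leaving out biochip 20 ended the calls of all 3, leaving out 21 those of Krr1 and Nolc1, and leaving out 13, 22 or 23 that of Nolc1. With both runs together no gene of these lists was called at either dose. The lowest p at 10 µM were those of Riok3 (0.24), Mybbp1a (-0.54), Taf1a (0.42), Pop1 (-0.63, limma adjusted p = 0.0833) and Exosc5 (-0.36), 1 in each list. Of the 10 exosome genes, which trim the precursor, 9 were below DMSO in run 2 (median -0.43) and 4 in run 1 (median 0.05). Their array means spanned 7.301 to 8.033 at 10 µM in run 2, against 8.104 to 8.151 in the run 2 controls. Cytosolic ribosomal protein genes, 70 in number, had medians of -0.04 in run 1 and -0.03 in run 2. The 68 mitochondrial ribosomal protein genes had medians of -0.05 and -0.18, with array means of 7.567 to 8.325 at 10 µM in run 2 and 8.117 to 8.313 in its controls. The 24 cell cycle genes had medians of 0.05 and 0.12.

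**Figure D4:**
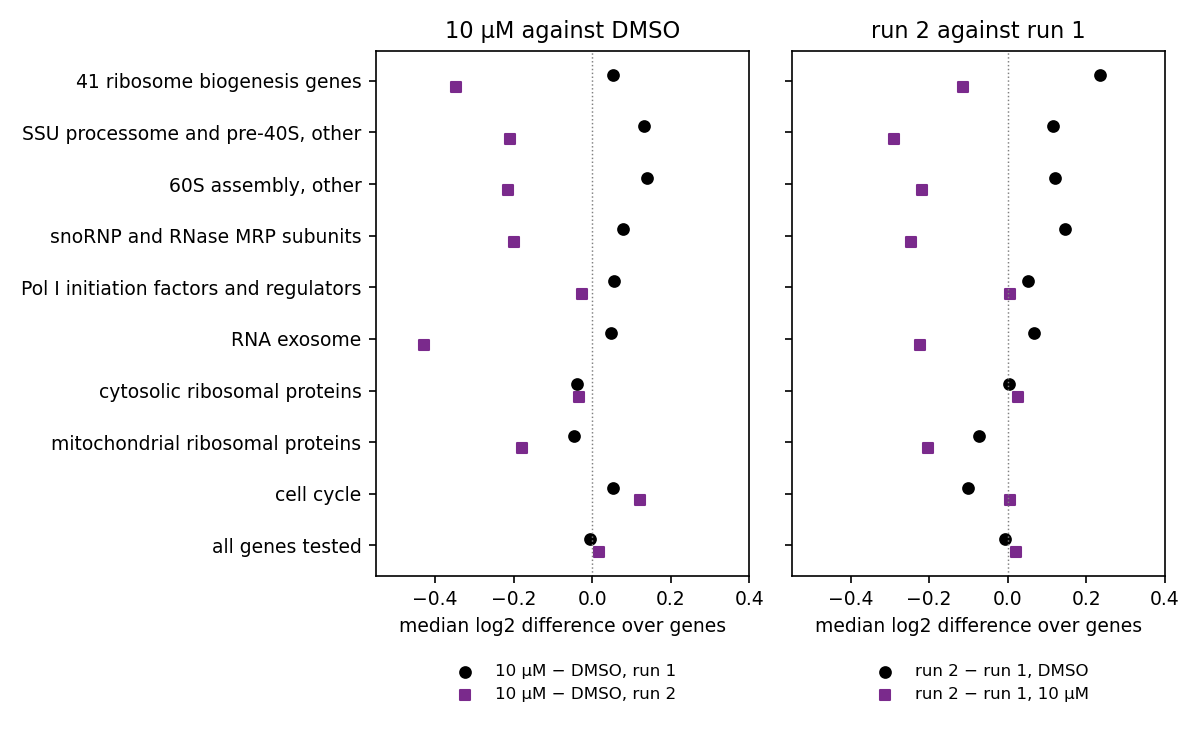
Median log2 difference over the genes of each list, for 10 µM minus DMSO in run 1 (circles) and run 2 (squares) on the left, and for run 2 minus run 1 in DMSO (circles) and at 10 µM (squares) on the right. The 41 genes reach -0.35 in run 2 and 0.23 in DMSO between the runs, and the cytosolic ribosomal protein genes lie within 0.04 of 0 in each.

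Markers of other cell types also differed between the controls of the runs. The mean over 6 endothelial markers was 4.81 to 4.87 in the run 2 controls and 4.42 to 4.47 in those of run 1, and 6 of 6 were higher (median 0.43), with 0 called. Of 14 Kupffer cell and macrophage markers, 10 were higher in the run 2 controls, but the called one, Cd68, was lower (-2.69, limma adjusted p = 0.0164), a call that ended without biochip 10, 11, 20 or 21. At 10 µM in run 2 Cd68 was higher than in DMSO (2.11, limma adjusted p = 0.0199), a call that ended without biochip 20 or 21. The mean over the Kupffer list was 5.85 to 6.85 in the run 2 controls and 5.99 to 6.52 in those of run 1. The means of the 4 red blood cell markers were 5.62 to 5.70 and 5.34 to 5.38. Hepatocyte markers averaged 11.07 to 11.29 and 11.29 to 11.30. Within run 2 endothelial markers were also lower under flutamide, 6 of 6 at 10 µM (median -0.17) and 5 of 6 at 100 µM (median -0.23). Kupffer cell and macrophage markers were lower there in 7 of 14 at 10 µM (median -0.02) and in 12 of 14 at 100 µM (median -0.73), where the mean over the list was 5.62 to 5.74. Of the hepatocyte markers 4 of 6 were higher at each dose (medians 0.22 and 0.12). The lowest p of that list at 100 µM was that of Cps1, which was lower (-1.30, SE 0.40, limma adjusted p = 0.335). Ttr was called higher at 10 µM (0.64, limma adjusted p = 0.0426). That call ended without biochip 12, 13, 14, 20, 21, 24, 26 or 27 (adjusted p 0.0312 to 0.169 over the 15 fits that left out 1 array), and also with a renewed quantile normalization or when the 3 lowest-weight arrays were dropped. The part of these markers in the values of the ribosome biogenesis factors was not tested.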

How the data were processed

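Log2 expression values of 15 arrays were deposited by the authors as 1 table, with a column per array. RMA (background correction, quantile normalization and probe summary) and Partek were used, per the submitters' processing notes, with settings that the sources used here do not give. Arrays have no read depth, and their number limits the precision. No detection values were used.

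Of 29214 probe sets, 15310 carried 1 gene symbol in the platform annotation and 15279 matched RefSeq genes (GRCr8); 323 named several genes. The 13904 others were left out. For the 527 genes with several probe sets, 3 members among them (Gnl3, Nop16 and Npm1), the one of highest mean was used. Symbols of 0 members changed in the match, and 0 columns were left unmapped.

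Differences were tested with limma 3.58.1 (lmFit and eBayes, R 4.3.3) over all 14506 genes, with group and run as terms (11 residual degrees of freedom) or 1 mean per group and run (9), and adjusted by Benjamini-Hochberg at 0.05. The fits were tested on simulated data. Alternatives were no run block, a random block, each array left out, array weights, renewed quantile normalization, dim genes left out, mean of probe sets, a trended robust prior and each run alone; leaving out the 3 arrays of lowest weight and leaving out Polr1has were added after seeing the data, as were the contrasts of the runs within each group. Named members were a fixed set (among them Ppan, the polymerase subunits a to e, Fbl, Ncl and Npm1), called members or else the 3 of lowest p, and the 3 most negative and 2 most positive at each dose; Nop2 and Pes1 are not analysed here. Other members in the text (Rrs1, Utp25, Nop10, Nop14 and Nop53 among them) were named after their values were seen. Members and lists were chosen with earlier results of these data known.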

Additional observations from a re-analysis of the deposited data

Results flagged for a closer look

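In 7 named members 1 array stood far from the rest of its group, by Dixon's ratio of the gap to the whole range of the group, at the 95% critical value. In DMSO biochip 11 was low for Fbl (ratio 0.774) and Nop58 (0.710). In the 10 µM group biochip 23 was low for Ftsj3 (0.791) and high for Gnl3 (0.840) and Npm1 (0.736). Biochip 24 was low for Ncl (0.720) and biochip 12 high for Polr1c (0.782). Over all genes an array stood apart in 7.53% in DMSO, 15.8% at 10 µM and 8.11% at 100 µM, where this rule by chance takes about 1 group in 20.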

How the results depend on the processing

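No paired analysis was possible because the groups share no replicate number. The number of members called was 0 in each dose comparison under every alternative run. Leaving out 1 array gave 0 to 1 called between runs and 0 to 3 in the difference between runs at 10 µM, the upper values without biochip 25, and 0 to 0 in the dose comparisons over both runs and in the difference between runs at 100 µM. Within run 2 it gave 0 to 8 at 10 µM (8 without biochip 25) and 0 at 100 µM, and from run 1 to run 2 it gave 0 to 1 within each group. Median differences over the members ran with 1 array left out from -0.25 to -0.10 at 10 µM, -0.15 to -0.01 at 100 µM and 0.01 to 0.11 between doses. The difference between runs had medians of -0.38 to -0.19 at 10 µM and -0.35 to -0.22 at 100 µM, and run 2 against run 1 within DMSO 0.18 to 0.29. With run 1 alone the medians were 0.053 at 10 µM and 0.11 at 100 µM, and with run 2 alone the median was -0.35 at 10 µM. With renewed quantile normalization the difference between runs had medians of -0.12 at 10 µM and -0.12 at 100 µM, with 26 and 27 of 41 negative; the cause was not tested. With few arrays per group and run, small differences between members could not be resolved.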
